A study of Mus musculus with 8 samples.

Results

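The stem cell transcription factor heptad comprises 7 genes, *Gata2*, *Tal1*, *Lmo2*, *Lyl1*, *Runx1*, *Fli1* and *Erg*, which were examined here among 21938 protein-coding genes in H3K9ac ChIP-seq data of mouse bone marrow (BM). H3K9ac, an acetylated lysine on histone H3, is found at promoters and enhancers in use. The members were fixed by name, and their sites were all peaks within 1 kb of a TSS of a member or in its gene body plus 50 kb on each side. This gave 613 of 220499 peaks, which merged into 169 of 64462 sites. There were 6 H3K9ac libraries of frozen whole BM cells, 1 for each combination of 3 genotypes with vehicle or curcumin, so differences between groups cannot be set against replicates and there are no p-values. Every mouse was C57BL/6 and carried the Nup98-HOXD13 transgene, a fusion oncogene that models myelodysplastic syndrome and acute myeloid leukaemia. The alleles were *GFI1-36S*, the common form of the zinc finger repressor GFI1, *GFI1-36N*, in which asparagine replaces serine, and *GFI1-KD*, with reduced expression. Curcumin, which the study used as an inhibitor of histone acetyltransferases, was injected intraperitoneally at 20 mg/kg each week, and vehicle mice received DMSO. Ages and the number of mice behind a library are not given in the sources used here. An input sample of *GFI1-36S* and an IgG sample of *GFI1-36N* mice have no peak list here.

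The heptad factors bind together at many regulatory elements of blood stem and progenitor cells, often at each other's genes. GATA2 is a zinc finger factor that binds GATA motifs. TAL1 and LYL1 are related basic helix-loop-helix factors that bind E-boxes with E proteins, and LMO2 is the LIM-domain adaptor that joins them to GATA factors through LDB1. RUNX1 binds DNA with CBFB, and FLI1 and ERG are related ETS factors. *Runx1* is transcribed from a distal and a proximal promoter, and erythroid, mast cell and megakaryocyte cells keep some of these factors active beyond the stem cell stage. *Fli1*, *Runx1* and *Erg* also act in lymphoid cells.

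The *GFI1-36S* curcumin library stood apart from the other 5. It held 20354 peaks against 30784 to 49213 in the others. Its genome background was 4.61 fragments, against 4.78 to 6.13 in the others. Over the listed peaks alone, its median summit held 35 fragments, within the range of 24 to 36 of the others. None of 10 neutrophil genes and none of 6 monocyte genes had a promoter peak in it, whereas the other libraries had 6 to 10 and 6 of these, respectively. Of 10 T-cell genes, 9 had a promoter peak there and 2 to 6 in the others, and *Cd8a* had none in any library. Its erythroid count was 2 of 8, against 4 to 8 elsewhere. In their names, the *GFI1-36S* lists have vehicle and curcumin the other way round from the labels, which were followed here, and the *GFI1-36N* lists give a heterozygous animal for vehicle and a homozygous one for curcumin. In whole BM, fewer cells of a type and less H3K9ac per cell cannot be told apart. The part of these marker differences in the results on the heptad was not tested.

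Promoter sequences show the stretches just before a TSS. A promoter counts as having a peak if one lies within 1 kb of the TSS, so the printed bases need not lie under it. The 200 bases before a RefSeq TSS are printed 5′ to 3′ (GRCm38.p6, which is mm10), with capitals at matches on either strand to AGATAA (for GATA factors), CANNTG (the E-box), AGGAAG (for ETS factors) or TGNGGT (for RUNX factors). RefSeq promoters were matched for 5 of the 7 genes, all but *Lmo2* and *Fli1*. Of the 32843 RefSeq promoters, 7.8%, 58.2%, 24.7% and 33.4% held these motifs, respectively. The set comprises 3 promoters whose peak was missing in the *GFI1-36S* curcumin library (*Gata2*, chr6:88193691-88193890, *Tal1*, chr4:115056226-115056425, and *Lyl1*, chr8:84701257-84701456, plus strand), the proximal *Runx1* promoter with a peak in all 6 libraries (chr16:92697330-92697529, minus strand), and for *Erg* the most upstream promoter, with no peak in any library (chr16:95586594-95586793), and the internal one, with a peak in 5 (chr16:95459349-95459548), both on the minus strand.
Gata2 promoter: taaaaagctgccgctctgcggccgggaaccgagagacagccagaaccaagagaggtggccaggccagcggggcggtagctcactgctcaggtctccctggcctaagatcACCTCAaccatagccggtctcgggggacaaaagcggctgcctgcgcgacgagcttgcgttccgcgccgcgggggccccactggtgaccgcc
Tal1 promoter: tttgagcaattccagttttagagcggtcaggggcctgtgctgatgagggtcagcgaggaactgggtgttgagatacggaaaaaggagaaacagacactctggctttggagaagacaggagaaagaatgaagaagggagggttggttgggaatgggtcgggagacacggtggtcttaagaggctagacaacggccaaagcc
Lyl1 promoter: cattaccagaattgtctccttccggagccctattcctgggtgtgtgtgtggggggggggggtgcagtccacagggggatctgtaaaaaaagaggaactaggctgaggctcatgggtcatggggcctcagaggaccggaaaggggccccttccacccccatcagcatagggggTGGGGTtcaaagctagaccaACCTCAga
Runx1 proximal promoter: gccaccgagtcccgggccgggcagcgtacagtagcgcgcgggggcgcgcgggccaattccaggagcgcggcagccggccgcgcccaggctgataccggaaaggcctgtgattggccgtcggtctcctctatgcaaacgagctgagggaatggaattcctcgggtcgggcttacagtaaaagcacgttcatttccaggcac
Erg most upstream promoter: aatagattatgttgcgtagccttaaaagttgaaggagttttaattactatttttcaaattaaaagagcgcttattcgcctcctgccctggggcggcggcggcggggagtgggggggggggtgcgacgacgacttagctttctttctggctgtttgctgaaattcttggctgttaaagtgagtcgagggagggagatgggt
Erg internal promoter: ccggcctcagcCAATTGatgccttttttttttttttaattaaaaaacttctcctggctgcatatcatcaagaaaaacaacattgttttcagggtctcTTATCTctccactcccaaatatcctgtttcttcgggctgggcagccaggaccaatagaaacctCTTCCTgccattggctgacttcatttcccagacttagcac
Only the internal *Erg* promoter held an AGATAA, an E-box and an AGGAAG among these. A match of letters is a description and not a bound site.

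All 7 members had a promoter peak in each library except *GFI1-36S* curcumin, where only *Runx1* and *Fli1* had one. Over all 21938 coding genes, the share with a promoter peak was 44.3% in that library and 50.6% to 53.8% in the others. Relative to *GFI1-36S* vehicle, 5 of 7 members were missing in *GFI1-36S* curcumin. Over all 11608 genes with a promoter peak in that pair, 16.2% were lost and 1.99% gained. In *GFI1-36N* and *GFI1-KD*, 0 of 7 members were lost or gained, against backgrounds of 1.84% lost and 5.73% gained, and 6.73% lost and 1.19% gained. Of 10628 genes with a promoter peak in the other 5 libraries, 1287 (12.1%) lacked one in *GFI1-36S* curcumin alone. Promoters were ranked in each library from 0 to 100 by the fold enrichment of their strongest peak, with 0 for no peak. Of the 2274 genes with a *GFI1-36S* vehicle rank of up to 20, 62.4% lacked a curcumin peak, and no member was among them. Of the 2294 genes with a *GFI1-36S* vehicle rank above 40 and up to 60, 3.66% lacked a curcumin peak, and the 3 members in this range, *Gata2*, *Tal1* and *Erg*, all lacked it. The members lost were thus not among the weak promoters of the vehicle library. In the range above 60 and up to 80, the share was 1.32%, and *Lyl1* was without and *Runx1* with a peak. Above 80 it was 1.05%, and *Lmo2* was without and *Fli1* with one.

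**Figure D1:**
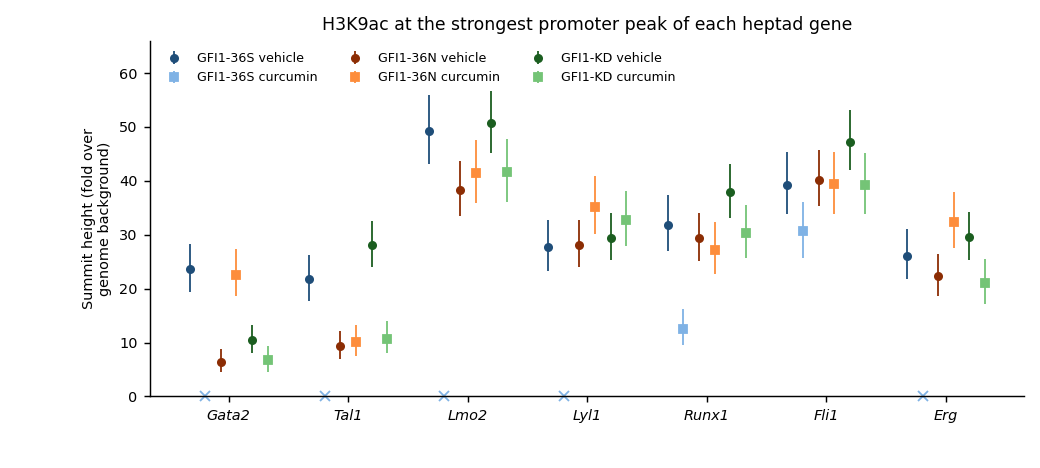
Summit height of the strongest promoter peak of each heptad gene, in fold over the genome background, for the 6 libraries. Points are single libraries (circles vehicle, squares curcumin), bars are 95% Poisson intervals for counting error, and crosses at 0 mark no promoter peak. The crosses all belong to GFI1-36S curcumin, and Gata2 shows the widest relative spread between the other libraries, from 6.42 to 23.6.

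Heights in the following are the fragments at a summit, recovered from the deposited fold enrichment and p-value, divided by the genome background of the library, which scales for depth. Their 95% intervals cover counting error only and say nothing of differences between mice. The lowest summit listed in *GFI1-36S* curcumin had a height of 3.04, and in the other libraries 2.70 to 3.03. A promoter without a peak has no height, so no fold is given for it.

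*Gata2* (chr6:88193891-88207032, plus strand), the GATA factor of stem and progenitor cells, varied most in relative terms. Its promoter height was 23.6 (19.4 to 28.3) in *GFI1-36S* vehicle, with no peak under curcumin. In *GFI1-36N* it was 6.42 (4.55 to 8.82) with vehicle and 22.6 with curcumin, and in *GFI1-KD* it was 10.4 and 6.67. The *GFI1-36S* vehicle and *GFI1-36N* curcumin libraries were thus high and the other 3 low. The ratio of curcumin to vehicle was 3.52 (2.41 to 5.24) in *GFI1-36N* and 0.639 (0.407 to 0.987) in *GFI1-KD*, while the median over all genes with a peak in both libraries was 1.24 and 0.885. The *GFI1-KD* ratio compares different peaks, since the strongest one with vehicle lay at the second TSS. At the first TSS the heights were 7.34 with vehicle and 6.67 with curcumin, and the peak near the second TSS went from 10.4 to 5.66. In *GFI1-36S* vehicle a single peak of 10617 bp ran from the TSS through most of the gene, wider than 99.9% of the strongest promoter peaks in that library. In *GFI1-36N* vehicle the strongest peak was 1027 bp wide. *GFI1-36S* curcumin had no peak at all in the 113 kb *Gata2* locus.

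*Tal1* (chr4:115056426-115071755, plus strand) encodes the basic helix-loop-helix factor of stem cells and of the erythroid and megakaryocyte lineages. Heights were 21.7 in *GFI1-36S* vehicle, 9.30 and 10.05 in *GFI1-36N* vehicle and curcumin, and 28.1 and 10.7 in *GFI1-KD* vehicle and curcumin. The *GFI1-36S* and *GFI1-KD* vehicle libraries were high and the others about alike. Curcumin over vehicle was 1.08 (0.718 to 1.62) in *GFI1-36N*, an interval that includes 1, and 0.382 (0.275 to 0.522) in *GFI1-KD*, the lowest ratio among members with a peak in both libraries of a pair, though its interval overlaps that of *Runx1* in *GFI1-36S*. Its *GFI1-KD* rank went from 56.5 to 16.3. The erythroid genes with a promoter peak went from 8 to 4 of 8 in the same pair and from 7 to 4 in *GFI1-36N*.

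*Lyl1* (chr8:84701457-84704715, plus strand), the close relative of *Tal1*, lies inside the longer gene *Nfix* on the opposite strand, so the peak cannot be assigned to one of them. Its heights were 27.7 in *GFI1-36S* vehicle, 28.1 and 35.2 in the *GFI1-36N* pair, and 29.4 and 32.7 in the *GFI1-KD* pair, vehicle first. The ratio was 1.25 (1.01 to 1.56) in *GFI1-36N* and 1.12 (0.897 to 1.39) in *GFI1-KD*. The 5 heights thus lay between 27.7 and 35.2, a narrow range beside that of *Gata2* or *Tal1*. Their summits were not all at the same position, since that of *GFI1-36S* vehicle lay 0.484 kb from the TSS. The peak was 8325 to 9185 bp wide, and in 4 libraries its summit lay 4.40 to 4.41 kb from the TSS, beyond the gene, which is 3259 bp long. *GFI1-36S* curcumin had one narrow peak of 24 fragments and a height of 5.21 in this stretch, outside the window of 1 kb around the TSS. With 3 kb on each side, 3 members instead of 2 had a promoter peak in that library.

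*Lmo2* (chr2:103957986-103981878, plus strand), the bridging adaptor, was among the strongest promoters. The peak with the highest fold enrichment lay at its proximal TSSs, about 12 kb from the most upstream one, with heights of 49.2 in *GFI1-36S* vehicle, 38.4 and 41.4 in the *GFI1-36N* pair, and 50.7 and 41.6 in the *GFI1-KD* pair, vehicle first. It stood at position 121 of 41312 peaks in *GFI1-36S* vehicle and between positions 265 and 889 in the other 4 lists. The distal promoter had a peak in the same 5 libraries, with heights of 13.4, 5.92, 6.28, 15.3 and 5.26. The *GFI1-36S* and *GFI1-KD* vehicle libraries were highest at both promoters. Ratios at the proximal promoter were 1.08 (0.888 to 1.31) in *GFI1-36N* and 0.821 (0.685 to 0.982) in *GFI1-KD*. In *GFI1-36S* curcumin, the only peak in the *Lmo2* locus lay at the promoter of its neighbour *Fbxo3*.

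**Figure D2:**
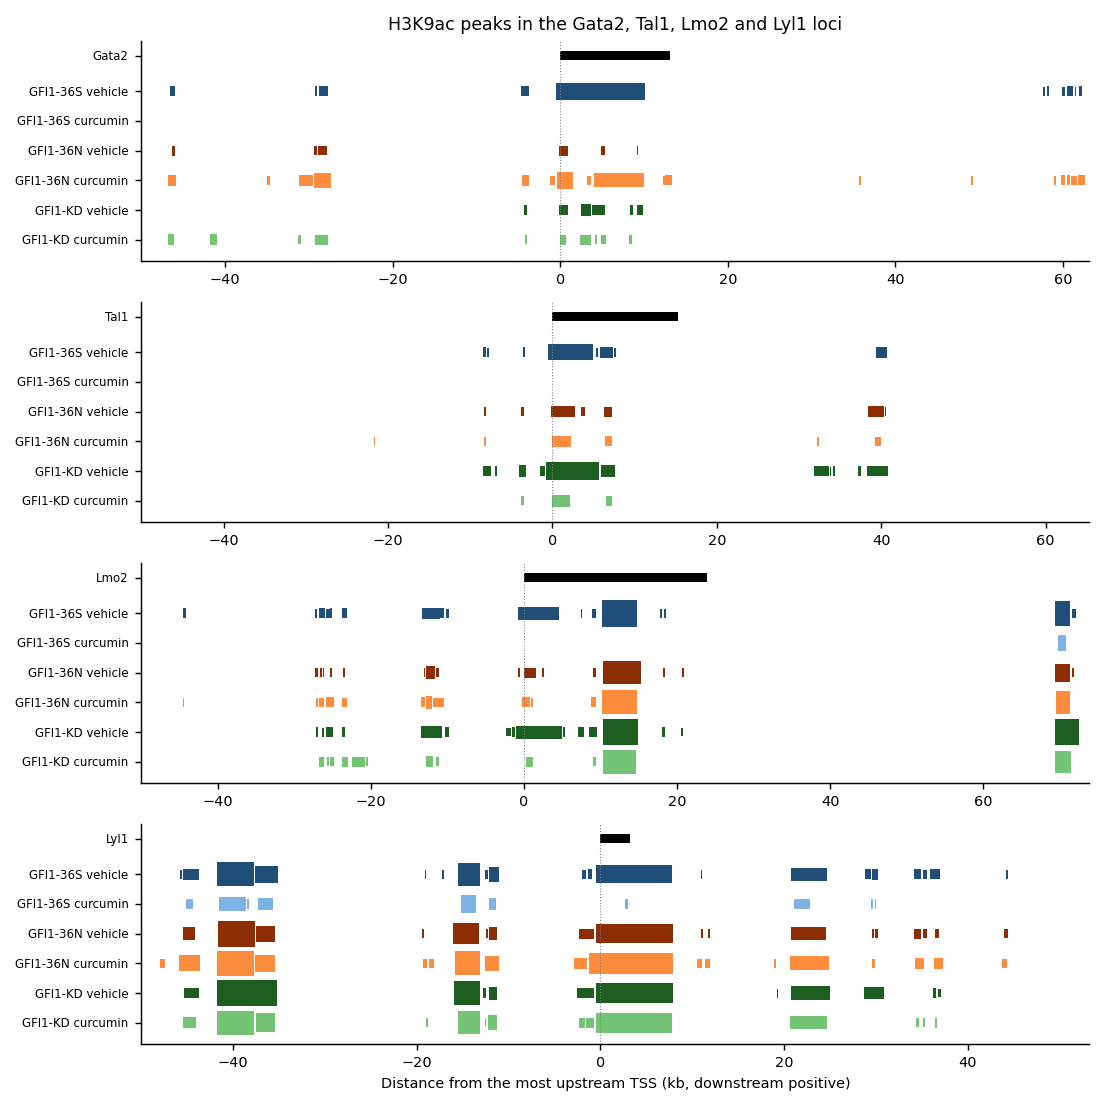
Peaks in the Gata2, Tal1, Lmo2 and Lyl1 loci in the 6 libraries, drawn to scale by distance in kb from the most upstream TSS (dotted line), with the gene as a black bar. Each coloured box is a peak and its height rises with fold enrichment up to 40. GFI1-36S curcumin is empty in Gata2 and Tal1 and has 1 peak in Lmo2, at the neighbouring promoter.

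*Runx1* (chr16:92601466-92826149, minus strand) encodes the DNA-binding subunit of core binding factor. It had a peak at the distal promoter and at the proximal promoter, 129 kb downstream, in all 6 libraries. Distal heights were 30.0 and 12.6 in *GFI1-36S*, 29.4 and 27.2 in the *GFI1-36N* pair, and 37.8 and 30.3 in the *GFI1-KD* pair, vehicle first. Proximal heights were 31.8 and 11.5, 23.7 and 25.95, and 32.3 and 25.7 in the same order. Both promoters were low in *GFI1-36S* curcumin and at 23.7 or more elsewhere. The strongest promoter peak was the proximal one in *GFI1-36S* vehicle and the distal one in the other 5 libraries. For it the ratio was 0.395 (0.287 to 0.538) in *GFI1-36S*, 0.925 (0.731 to 1.17) in *GFI1-36N* and 0.801 (0.648 to 0.988) in *GFI1-KD*. The *GFI1-36S* ratio was below the median of 0.583 over all 9495 genes with a peak in both libraries, whose quartiles were 0.483 and 0.704.

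*Fli1* (chr9:32422204-32542861, minus strand), an ETS factor of stem, megakaryocyte and lymphoid cells, was the more even of the 2 members with a promoter peak in all 6 libraries. Heights were 39.3 and 30.6 in *GFI1-36S*, 40.2 and 39.3 in the *GFI1-36N* pair, and 47.3 and 39.2 in the *GFI1-KD* pair, vehicle first. The *GFI1-36S* ratio was 0.779 (0.622 to 0.974), above that of *Runx1*, with intervals that do not overlap. As ranks, *Fli1* went from 90.3 to 96.3 in that pair, as the only member with a higher rank, whereas 69.1% of all genes with a peak in the pair had a lower rank with curcumin. The ratios in *GFI1-36N* and *GFI1-KD* were 0.978 (0.803 to 1.19) and 0.829 (0.688 to 0.998).

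*Erg* (chr16:95359169-95586593, minus strand), the ETS relative of *Fli1*, has 6 annotated TSSs. Its only promoter peak covered the TSSs about 127 kb downstream of the first, the internal promoter printed above, and no library had a peak at the 3 TSSs upstream of it. Heights were 26.1 in *GFI1-36S* vehicle, 22.3 and 32.4 in the *GFI1-36N* pair, and 29.5 and 21.02 in the *GFI1-KD* pair, vehicle first. The value with curcumin was the higher one in *GFI1-36N* and the lower one in *GFI1-KD*, with ratios of 1.45 (1.15 to 1.85) and 0.712 (0.554 to 0.911). No test was made of this difference between genotypes. The summit lay 890 to 991 bp downstream of the nearest TSS. *GFI1-36S* curcumin had no peak in the 327 kb *Erg* locus.

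**Figure D3:**
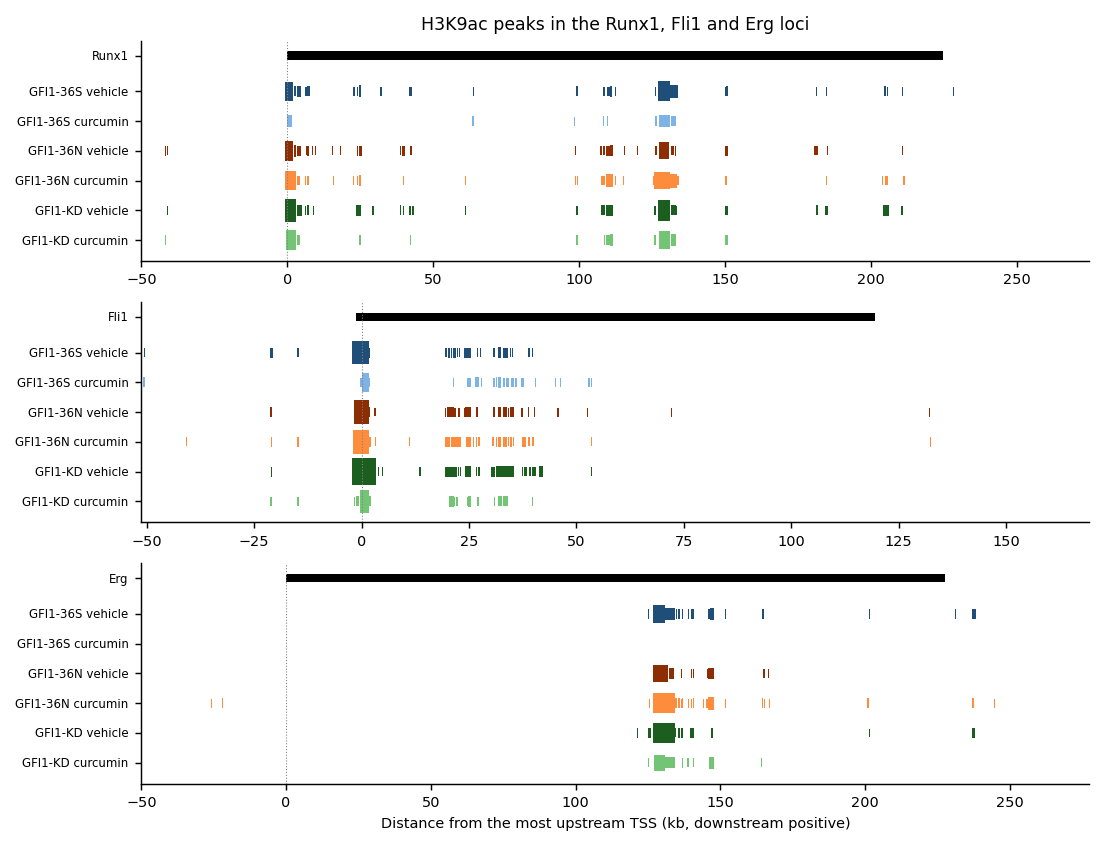
Peaks in the Runx1, Fli1 and Erg loci, drawn as in the maps of the other 4 genes, with distance in kb from the most upstream TSS. Runx1 carries peaks at both promoters in all 6 libraries, Fli1 has 11 distal sites in its gene body in GFI1-36S curcumin, and Erg has none in that library and none at its most upstream TSS in any.

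Across members, the median height ratio was 1.08 in *GFI1-36N* and 0.801 in *GFI1-KD*, both below the medians of 1.24 and 0.885 over all genes. In *GFI1-36S* only 2 members had a peak in both libraries, so no median is given. The median change in promoter rank was −47.0 in *GFI1-36S*, −0.0918 in *GFI1-36N* and −8.62 in *GFI1-KD*, against −6.61, 1.89 and −2.34 over all genes with a promoter peak in the pair. Ranks were lower with curcumin for 6 of 7 members in *GFI1-36S* and in *GFI1-KD* and for 4 of 7 in *GFI1-36N*. In *GFI1-KD* the member with a higher rank was *Lyl1*, which went from 59.9 to 78.4. With 7 genes that share 1 library on each side, these medians are a description.

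The member promoters were wide. The median width of their strongest promoter peak was 4560 bp in *GFI1-36S* vehicle, 3447 and 3894 bp in *GFI1-36N*, and 5635 and 3599 bp in *GFI1-KD*, against 1541 to 1963 bp over all genes in these libraries. In *GFI1-36S* vehicle, 6 of 7 were at least 4 kb wide, compared with 4.76% of all genes. In *GFI1-KD* the count went from 5 with vehicle to 2 with curcumin, while the share over all genes went from 8.75% to 2.76%. In *GFI1-36S* curcumin the 2 members with a peak had a median of 1589 bp, against 1064 bp over all genes.

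Peaks covered more of the heptad loci than of other loci. Peaks covered 9.67% of the locus bases in *GFI1-36S* vehicle and 2.39% with curcumin, 7.79% and 10.03% in the *GFI1-36N* pair, and 10.3% and 6.51% in the *GFI1-KD* pair. Over the loci of all coding genes, with or without a promoter peak, the shares were 0.956% to 2.43%. In *GFI1-36S* curcumin, where that share was 0.956%, *Gata2*, *Tal1* and *Erg* were at 0% and *Lmo2* at 0.831%. By gene, the *Lyl1* locus was most covered in every library, at 10.4% to 32.2%. That locus also holds 4 promoter sites of other genes, found in all 6 libraries. In *GFI1-36S* curcumin these had 4894, 1637, 755 and 1745 bp under peaks, and the *Lyl1* promoter site had 417 bp. *Gata2* went from 3.22% in *GFI1-36N* vehicle to 16.6% with curcumin. *Lmo2* ranged from 0.831% in *GFI1-36S* curcumin to 18.0% in *GFI1-KD* vehicle. *Tal1* coverage went from 13.9% to 2.96% in *GFI1-KD*. Distal sites were those over 1 kb from any TSS. In *GFI1-36S* vehicle the 7 loci together had 5.57 of them per 100 kb, where the median gene with a promoter peak had 1.73. By gene, the density there ran from 3.47 in *Tal1* to 8.88 in *Lmo2*. In *GFI1-KD* vehicle, *Gata2* had 0 distal sites.

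Of the 169 sites, 11 were at member promoters, 12 at promoters of other genes and 146 distal. A site was counted for a library when one of its peaks overlapped it. *GFI1-36S* had 23 sites in the vehicle and the curcumin library, 68 only with vehicle and 7 only with curcumin. Over all 37165 sites of this pair, 32.8% were in both, 57.3% only with vehicle and 9.85% only with curcumin. *GFI1-36N* had 63, 16 and 50 in the same order, with shares over all sites of 54.5%, 13.7% and 31.8%. *GFI1-KD* had 43, 44 and 14, with shares over all sites of 54.5%, 36.3% and 9.22%. The direction thus differed, with more sites under curcumin in *GFI1-36N* and fewer in the other genotypes, as over all sites. Vehicle-only sites made up 90.7% (Wilson 95% interval 82.0 to 95.4), 24.2% (15.5 to 35.8) and 75.9% (63.5 to 85.04) of the changed sites, against 85.3%, 30.2% and 79.7% of all changed sites. These intervals cover counting error only and count each site as independent, while the sites lie in 7 loci with 1 library on each side. When each list was cut to its 20354 strongest peaks, the *GFI1-36N* share was 61.5% (35.5 to 82.3), which turns its direction.

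**Figure D4:**
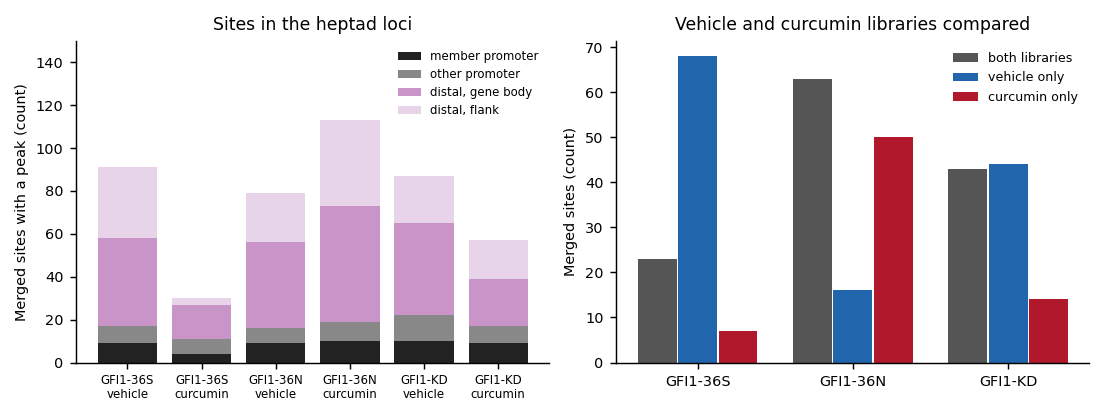
Left, merged sites with a peak in the heptad loci per library, stacked by class. Right, sites of each genotype in both libraries, in the vehicle library only or in the curcumin library only. Bars are counts, 1 library per group, and the curcumin bar is the taller of the changed ones in GFI1-36N alone, with 50 against 16.

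Genes differed within these totals. In *GFI1-36N*, *Gata2* had 3 sites in both libraries, 12 with curcumin alone and 0 with vehicle alone, and *Erg* had 8, 14 and 0. *Runx1* changed in both directions, with 15 sites in both, 13 gained and 10 lost. In *GFI1-KD*, *Tal1* had 3 sites in both, 8 with vehicle alone and 0 with curcumin alone, whereas *Gata2* had 2, 0 and 4. In *GFI1-36S*, *Fli1* was the exception, with 9 sites in both, 3 with vehicle alone and 6 with curcumin alone. Its distal sites in the gene body went from 6 to 11. All other members lost more sites than they gained, as *Lmo2* with 1, 13 and 0. *Ets1*, the ETS gene next to *Fli1*, went from a promoter rank of 28.6 to 67.5 in the same pair.

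Between genotypes with vehicle, no member gained or lost its promoter peak. Over all genes, 3.4% were lost and 3.03% gained in *GFI1-36N* against *GFI1-36S*, and 2.1% and 5.33% in *GFI1-KD* against *GFI1-36S*. Of the heptad sites, 61 were shared by *GFI1-36N* and *GFI1-36S*, 30 were found in *GFI1-36S* only and 18 in *GFI1-36N* only, with shares over all sites of 57.2%, 21.7% and 21.1%. For *GFI1-KD* and *GFI1-36S* the numbers were 61, 30 and 26, with shares over all sites of 58%, 18.1% and 23.9%. Both comparisons use the *GFI1-36S* vehicle library. The number of sites present in 1 vehicle library and not in another was thus of the order of the changes with curcumin in *GFI1-36N* and *GFI1-KD*.

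Sites in all 6 libraries numbered 19, or 11.2% against 17.3% of all 64462 sites, of which 4 were member promoters, 7 promoters of other genes and 8 distal. A further 19, among them 14 distal ones, were missing from *GFI1-36S* curcumin alone, or 11.2% against 12.1% of all sites. The merged *Lyl1* promoter site counts as found in all 6 because of the narrow peak named above. A single library held 73 of the 169 sites, or 43.2% against 41.5% of all sites.

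Enhancers known for these genes were looked up in windows of 3 kb centred at their usual distance from the most upstream TSS. None of the 11 windows had a peak in *GFI1-36S* curcumin. The median gene with a promoter peak had 0 distal sites per 100 kb in that library, against 0.875 to 2.32 in the others. The windows of *Gata2* at +9.5 kb, *Lmo2* at −12 kb and −25 kb and *Runx1* at +23 kb had a peak in all the other 5 libraries. At the *Lmo2* −12 kb window, heights were 13.4 in *GFI1-36S* vehicle, 12.3 and 14.4 in the *GFI1-36N* pair, and 13.9 and 11.1 in the *GFI1-KD* pair. This element was thus more even over the libraries than the distal promoter, which it matched in *GFI1-36S* vehicle, exceeded in *GFI1-36N* and in *GFI1-KD* curcumin and did not reach in *GFI1-KD* vehicle. At *Gata2* +9.5 kb the *GFI1-36S* vehicle peak is the wide one that starts at the promoter. The windows of *Gata2* at −2.8 kb, *Tal1* at −4 kb and *Tal1* at +40 kb had a peak in 4 libraries, *Fli1* at −15 kb in 3 and *Fli1* at +12 kb in 2. The *Gata2* −2.8 kb window was reached only by a promoter site of *Gm38708*, with its summit at −3.93 kb. No peak lay at the −2.8 kb position itself. In *GFI1-KD* vehicle the *Fli1* +12 kb window was reached by a promoter site of *Gm37474*. The erythroid *Tal1* +40 kb element was missing in *GFI1-KD* curcumin, with 8.32 for vehicle. No library had a peak in the *Tal1* +19 kb window. The *Erg* +85 kb element is counted from a TSS within the gene. From the most upstream TSS no library had a peak there, and from either of the next TSSs 5 libraries had one, up to 6.52 and 14.7, respectively.

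The E-box followed after 6 to 9 bases by AGATAA, read on either strand, is the composite bound by the TAL1, LMO2 and GATA complex. The opposite order of the motifs was not searched. Within the 169 sites it occurred 4 times, or 2.04 per 100 kb of site, against 1.15 per 100 kb over all 64462 sites. The 4 stretches are shown on the strand of the gene with both motifs in capitals because they are the only stretches of the sites with this order and spacing. They lie outside exons, in *Gata2* at +9.29 kb (chr6:88203165-88203224), in *Runx1* at +25.1 kb (chr16:92801013-92801073), just upstream of the distal *Runx1* promoter (chr16:92826371-92826429) and downstream of the internal *Erg* promoter (chr16:95457579-95457638).
Gata2 composite: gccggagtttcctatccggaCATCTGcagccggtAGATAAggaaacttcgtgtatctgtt
Runx1 +25 composite: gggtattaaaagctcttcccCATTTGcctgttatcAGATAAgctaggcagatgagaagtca
Runx1 distal promoter composite: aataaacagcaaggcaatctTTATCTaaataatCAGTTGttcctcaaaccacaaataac
Erg composite: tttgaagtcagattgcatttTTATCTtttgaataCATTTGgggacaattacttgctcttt
The first, the third and the fourth lie in merged sites classed as member promoters because the site reaches within 1 kb of a TSS. The first itself lies in the *Gata2* +9.5 kb window, in a site that spans the *GFI1-36S* vehicle peak of 10617 bp. The second lies in a distal *Runx1* site. Heights of that site were 11.99 in *GFI1-36S* vehicle, 5.92 and 7.95 in the *GFI1-36N* pair, and 8.16 and 6.87 in the *GFI1-KD* pair. By fold enrichment over local background, that site was the strongest distal one of the heptad lost with curcumin in *GFI1-36S*, while by height the *Lmo2* −12 kb site, at 13.4, was above it. In 300-base windows around the summits, single motifs were about as frequent in the heptad sites as elsewhere. AGATAA was found in 13% of them against 12.5% of all sites, CANNTG in 71.6% against 76.8%, AGGAAG in 43.2% against 39.7% and TGNGGT in 52.7% against 51.2%. The windows of 6 of 11 member promoters held AGGAAG, or 54.5% against 32.4% of all promoter sites, and those of 2 held TGNGGT, or 18.2% against 48.2%.

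The changed distal sites with the highest fold enrichment over local background, 3 per genotype, differed by genotype. Their order by height can differ. In *GFI1-36S*, after the *Runx1* site, they were an *Erg* site at 147 kb from the most upstream TSS, with heights of 11.2 with vehicle and 5.55 to 14.7 in the *GFI1-36N* and *GFI1-KD* libraries, and a *Tal1* site at +6.86 kb. All of these were found in the other 5 libraries. In *GFI1-36N* all were gained *Gata2* sites, at −29.8, +62.0 and +12.6 kb, with curcumin heights of 8.37, 6.49 and 6.07. In *GFI1-KD* they were a *Lyl1* flank site at +29.1 kb and the *Tal1* site at +39.3 kb, with vehicle heights of 9.95 and 8.32 and no peak with curcumin, and a *Gata2* site at −41.5 kb, found in *GFI1-KD* curcumin only, with a height of 8.69. A *Runx1* site lost in this pair had a lower fold enrichment than these but a vehicle height of 8.81.

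Paralogs, partners and targets of the heptad were described in the same way. All 11 partner genes, which include *Ldb1*, the E protein genes *Tcf3*, *Tcf4* and *Tcf12*, the RUNX1 subunit gene *Cbfb* and the acetyltransferase genes *Ep300* and *Crebbp*, had a promoter peak in all 6 libraries, *GFI1-36S* curcumin included. In *GFI1-36S* the ranks of 6 were lower with curcumin and those of 5 higher, with a median change of −4.81, and the largest changes were those of *Cbfa2t3*, a corepressor gene, from 32.4 to 10.2 and of *Tcf4* from 53.5 to 36.7. Of the 10 paralogs, 9 and 6 had a peak in *GFI1-36S*, 7 and 9 in the *GFI1-36N* pair, and 9 and 8 in the *GFI1-KD* pair, vehicle first. The 3 of 9 paralogs lost in the *GFI1-36S* pair, where 16.2% of all genes were lost, were *Gata1*, *Tal2* and *Lmo1*. Their vehicle ranks were 13.3, 7.69 and 6.06, in the range up to 20 where 62.4% of all genes lacked a curcumin peak. *Gata3*, the T-cell GATA factor, went from a rank of 7.19 to 78.4 in that pair and ranked 8.74 or lower in the other 4 libraries.

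Of 16 targets and stem cell regulators, 14 and 6 had a promoter peak in *GFI1-36S*, 15 and 14 in the *GFI1-36N* pair, and 14 and 15 in the *GFI1-KD* pair. The 8 of 14 lost in the *GFI1-36S* pair, where 16.2% of all genes were lost, were *Kit*, *Cd34*, *Mecom*, *Hhex*, *Gfi1b*, *Spi1*, *Hoxa9* and *Eng*. Vehicle ranks of *Cd34*, *Mecom*, *Gfi1b* and *Eng* were 17.7, 6.61, 15.0 and 6.61. In this range, up to 20, 62.4% of all genes lacked a curcumin peak. *Kit* and *Hhex* had vehicle ranks of 33.4 and 93.1. *Hoxa9*, a homeobox gene of stem cells and leukaemia, went from 97.4 to 0, and *Spi1*, which encodes the myeloid ETS factor PU.1, from 90.8 to 0. *Gfi1* went from a rank of 20.96 to 68.8. In *GFI1-36N*, *Myb*, a progenitor factor, went from 44.8 to 88.6 and *Meis1* was lost. In *GFI1-KD*, *Hoxa9* went from 11.0 to 99.2. Megakaryocyte genes had a peak in 3 and 1, 2 and 3, and 4 and 2 of 6, and B-cell genes in 1 and 0, 1 and 1, and 3 and 1 of 6, in the order of *GFI1-36S*, *GFI1-36N* and *GFI1-KD* with vehicle first.

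**Figure D5:**
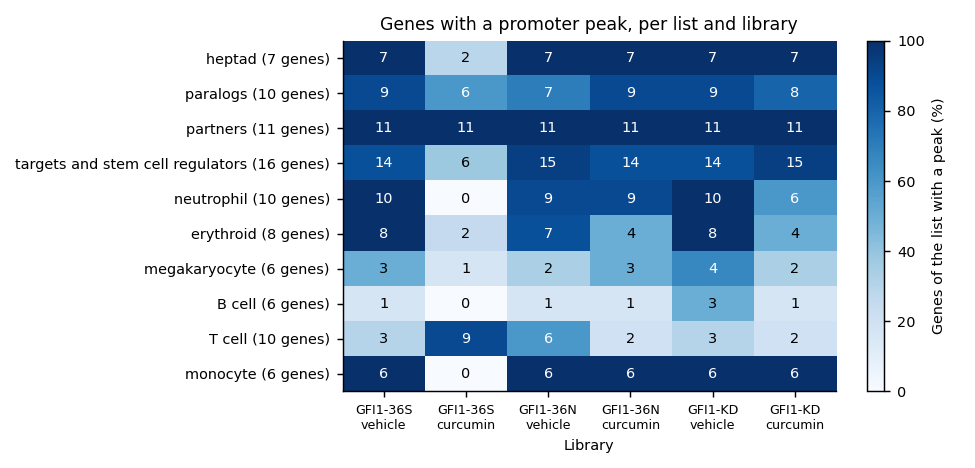
Number of genes with a promoter peak per gene list (rows) and library (columns), coloured by the percentage of the list. The column of GFI1-36S curcumin holds 2 of 7 heptad genes, 0 of 10 neutrophil genes and 9 of 10 T-cell genes, whereas all 11 partner genes have a peak in every column.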

How the data were processed

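The authors trimmed reads with Trim Galore, mapped them to mm10 with BWA, called peaks per library with MACS2 and removed black list regions. The control, threshold and handling of duplicates are not given in the sources used here. The deposited lists give per peak a fold enrichment (a ratio to local background), −log10 p, −log10 q and an integer score from the authors' peak caller. None is normalized between libraries.

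Genes came from the GENCODE M21 basic annotation. Whole summit fragments were recovered from the relation between fold enrichment and p in MACS2, met to 0.002 in −log10 p by 100% of peaks, and given with exact Poisson intervals. Ratios have exact binomial intervals. Work was done in Python 3.11.15 (pandas 2.3.3, numpy 2.4.6, scipy 1.17.1, matplotlib 3.10.9). The scripts were tested on simulated data. Sites were merged over the 6 lists at 1 bp of overlap. A written rule gave the genes named with ranks, namely every member, and from the other lists those lost, gained or most changed in rank. Not all of these are printed. The rule also gave the genes closest to the median of the heptad and the changed sites with the highest fold enrichment. Further partner genes and *Cd8a* are named without ranks. The *Runx1* and *Lmo2* sites compared by height were added after their values were seen. A gene that the rule names is not reported here. The members and lists were chosen with earlier results of these data known. Alternatives covered the peak threshold, list size, windows, flanks, overlap, rank measure and the *GFI1-36S* treatments.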

Additional observations from a re-analysis of the deposited data

Results flagged for a closer look

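Some results at the heptad loci went opposite ways with curcumin in *GFI1-36N* and *GFI1-KD*, with 1 library on each side. These were the share of changed sites and the promoter heights of *Gata2* and *Erg*. Height ratios of *Tal1* and *Lmo2* also did, but their *GFI1-36N* intervals include 1. Other ratios moved the same way, with 1.25 and 1.12 for *Lyl1*, 0.925 and 0.801 for *Runx1*, and 0.978 and 0.829 for *Fli1*. For each of these, the interval of 1 pair includes 1. In both pairs the *Gata2* locus gained sites and lost none. Of the changed sites, 24.2% were found with vehicle alone in *GFI1-36N* and 75.9% in *GFI1-KD*, against 30.2% and 79.7% over all changed sites. With equal list sizes the shares were 61.5% and 67.9%, which no longer differ in direction. The promoter height of *Gata2* with curcumin was 3.52 times that with vehicle in *GFI1-36N* and 0.639 times in *GFI1-KD*, where the strongest peaks lay at different TSSs. For *Erg* the ratios were 1.45 and 0.712. The counting intervals of these ratios lie on opposite sides of 1. So do the medians over all genes with a peak in both libraries, 1.24 in *GFI1-36N* and 0.885 in *GFI1-KD*. Both *Erg* intervals and the *GFI1-KD* interval of *Gata2* include the median of their pair. The *GFI1-36N* interval of *Gata2* lies above it. No test was made of any of these differences between genotypes. The erythroid genes with a promoter peak were fewer with curcumin in both pairs, 4 against 7 and 4 against 8 of 8, and neutrophil genes were 9 and 9 of 10 in the *GFI1-36N* pair and 10 and 6 in the *GFI1-KD* pair.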

How the results depend on the processing

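Of 120 values recomputed under the alternatives, 98 stayed within the limits set for the main ones. The count of members with a promoter peak did so in each library under all alternatives tried on it, though it was not always the same. With the summit required inside the window, it was 6 instead of 7 in both *GFI1-36N* libraries and in *GFI1-KD* vehicle. With a promoter window of 3 kb on each side, it was 3 instead of 2 in *GFI1-36S* curcumin. With the *GFI1-36S* treatments exchanged, the median rank change was 47.0 and the vehicle-only share 9.33%. With equal list sizes, the *GFI1-36N* share turned to 61.5% and the *GFI1-36S* one was 64.1%, beside 67.9% for *GFI1-KD*, the share of sites in both *GFI1-36N* libraries was 68.3%, the *GFI1-36N* rank change was −2.23, and sites numbered 41 for *GFI1-36S* vehicle, 36 and 33 for the *GFI1-36N* libraries and 43 and 33 for those of *GFI1-KD*. With a −log10 q of at least 5, the *GFI1-36N* rank change was −1.055 and *GFI1-36S* vehicle had 60 sites. With a promoter window of 3 kb, that rank change was 0.158. With flanks of 10 kb, sites numbered 60 in *GFI1-36S* vehicle, 71 in *GFI1-36N* curcumin and 35 in *GFI1-KD* curcumin, and the *GFI1-KD* vehicle-only share was 89.7%. Where peaks had to cover 50% of a site, the share in both libraries was 10% for *GFI1-36S*, 29.7% for *GFI1-36N* and 23.3% for *GFI1-KD*. The 2 members with a peak in both *GFI1-36S* libraries had a median rank change of −15.1. Shorter lists and flanks hold fewer sites by construction, and other causes were not tested. No paired analysis was possible because each group has 1 library. The strongest promoter peaks of the members rest on 33 or more fragments, which limits the precision of the ratios.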

Other observations

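Coding genes outside the lists whose promoter ranks over the 6 libraries were among the closest to the median of the heptad included *Nr2c1*, with a mean absolute difference of 3.94 rank units, *Mtmr10* (4.35), *Snx9* (4.87) and *Tm6sf1* (5.05). With vehicle, the median heptad rank was 60.4 for *GFI1-36S*, 77.3 for *GFI1-36N* and 60.3 for *GFI1-KD*. With curcumin it was 0, 71.9 and 71.7 for the same genotypes. Of these 4 genes, *Nr2c1* alone had a promoter peak in *GFI1-36S* curcumin, with a rank of 6.77.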
